A study of Mus musculus with 4 samples.

Results

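The T cell receptor (TCR) response genes described here are 10 genes chosen by name, Cd69, Cd5, Itm2a, Tnfrsf9, Egr1, Egr2, Egr3, Nr4a1, Nr4a3 and Nab2, out of 32285 genes in the deposited matrices. All 10 were found by symbol and identifier, and they were followed from resting double-positive (DP) thymocytes to selected and single-positive (SP) cells and between genotypes. Thymocytes of 4 young adult mice on a C57BL/6 background were profiled by droplet single-cell RNA-seq, which reads the 3′ end of each transcript and counts unique molecular identifiers (UMIs). The 2 control mice carried floxed Tox4 alleles (Tox4;F/F), and the 2 conditional knockout (cKO) mice carried the same floxed alleles together with the Lck-Cre transgene (Tox4;F/F;Lck+), so both groups shared the floxed alleles and differed in the Cre. The proximal Lck promoter drives the recombinase from the DN3 stage of T cell development onwards, so earlier progenitors and non-T cells keep Tox4. Each library came from 1 mouse.

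An immature DP thymocyte that recognises self peptide on MHC with sufficient strength is signalled through its TCR, and this signal decides between positive selection, deletion and diversion to regulatory fates. The earliest transcriptional answer runs through calcium, Erk and NFAT and switches on transcription factors of the Egr and Nr4a families, while surface molecules such as CD69 and CD5 follow and are used in flow cytometry to recognise signalled cells. Egr factors are restrained by the Nab corepressors, which are themselves Egr targets, and Nr4a factors are widely read as reporters of strong or recent signals.

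The libraries held 12609 and 11790 control cells and 15608 and 17347 cKO cells, with 42716798, 47068533, 52465604 and 62007453 UMIs. Cells with over 10% mitochondrial UMIs were far more frequent in the libraries numbered 1 (48.3% in control 1 and 46.1% in cKO 1) than in those numbered 2 (20.6% and 23.1%), and they were left out. Between 36 and 70 cell barcodes were shared by any pair of libraries. The 33414 kept cells formed 25 clusters, built without the 10 genes and without 25 other TCR response genes, and clusters were named from marker lists as DN-like, DP blast (DPbla)-like, resting DP (DPre)-like, selected DP (DPsel)-like, CD4SP-like and CD8SP-like cells, or as phagocyte-, B cell-, erythroid- and gamma-delta T-like cells. A further 8 clusters with 4833 cells, 12.8% and 10.4% of the kept control cells and 19.4% and 15.1% of the kept cKO cells, stayed unnamed and entered only the sums over all kept cells. A further pair of clusters, numbers 4 and 12, was followed by number: cluster 4 had transcripts of Itm2a, Il7r and Ccr7 among its leading genes and cluster 12 had Xcl1, Tnfrsf9 and Tnfrsf4. Cluster 4 scored highest for the CD4SP markers (1.84) and cluster 12 for regulatory T cell markers (2.93). 1 of the clusters in the DPre-like class, number 17, went against its name: it scored highest for the DPre markers but was led by genes of dividing cells such as Ccnb2, Cdc20 and Tpx2. Its 520 cells were 2.88% to 3.85% of the DPre-like cells of a library. DPre-like cells numbered between 2728 and 5814 per library, DPsel-like cells between 465 and 1158, CD4SP-like cells between 266 and 372, CD8SP-like cells between 127 and 189, cells of cluster 4 between 395 and 655 and cells of cluster 12 between 177 and 301. Levels are UMIs of a gene per 1000000 UMIs of that class in that library (CPM), given in the order control 1, control 2, cKO 1, cKO 2, and they are compared between cells and not between genes. Tox4 itself stood at 68.5, 73.1, 54.0 and 62.1 CPM over all kept cells, lower in both cKO libraries but not called (log2 fold change -0.26, SE 0.10, edgeR adjusted p = 0.231). The 3′ tag lies outside the deleted exons, so this level does not test the deletion.

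Stretches of 250 bases upstream of a RefSeq transcription start (GRCm38.p6) are shown for 3 of the genes because they stand for 3 kinds of response gene described below: a rapid Egr factor, a rapid Nr4a factor and the corepressor. Each is written 5′ to 3′ in the direction of transcription, and capitals mark the match of a CArG box or Egr motif. Egr2 is shown at 1 of its 5 RefSeq starts (chr10:67537619-67537868, plus strand), where the capitals are a CArG box, the element bound by serum response factor. Nr4a1 is shown at chr15:101266596-101266845 (plus strand), where the capitals are the reverse complement of the Egr motif GCGGGGGCG. Nab2 is shown at chr10:127666704-127666953 (minus strand) and held none of the motifs searched.
Egr2: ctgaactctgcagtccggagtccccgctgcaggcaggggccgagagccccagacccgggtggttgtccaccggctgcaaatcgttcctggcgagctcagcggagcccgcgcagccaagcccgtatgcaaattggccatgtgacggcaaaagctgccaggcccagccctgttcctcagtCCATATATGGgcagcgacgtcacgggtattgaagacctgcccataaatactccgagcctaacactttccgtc
Nr4a1: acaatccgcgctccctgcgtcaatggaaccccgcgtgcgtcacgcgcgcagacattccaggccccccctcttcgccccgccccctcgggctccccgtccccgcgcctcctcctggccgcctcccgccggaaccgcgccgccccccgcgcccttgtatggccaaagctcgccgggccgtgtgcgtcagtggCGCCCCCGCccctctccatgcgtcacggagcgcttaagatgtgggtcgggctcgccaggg
Nab2: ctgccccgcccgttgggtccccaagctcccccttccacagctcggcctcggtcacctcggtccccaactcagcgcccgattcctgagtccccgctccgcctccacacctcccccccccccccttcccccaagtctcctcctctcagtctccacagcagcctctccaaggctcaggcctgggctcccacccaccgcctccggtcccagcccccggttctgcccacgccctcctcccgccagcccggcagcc
The CArG box of Egr2 lay 72 to 63 bases before the start, and the Egr motif of Nr4a1 lay 60 to 52 bases before it. 5 motifs were searched on both strands over 32851 promoter windows of the same length. A CArG box was present in 1.47% of them, the Egr motif in 2.57%, the cAMP response element TGACGTCA in 1.55%, the AP-1 motif TGANTCA in 6.75% and the NFAT core GGAAA in 55.6%. The promoter table used here held windows for 7 of the 10 genes (Cd5, Egr2, Itm2a, Nab2, Nr4a1, Nr4a3 and Tnfrsf9). Of these, 1 held a CArG box, 1 the Egr motif, 1 the AP-1 motif, 3 the NFAT core (Egr2, Itm2a and Tnfrsf9) and none the cAMP response element. The NFAT core in the Egr2 window shown is left in lower case. The AP-1 match was in Tnfrsf9, 15 to 9 bases before the start. Such matches describe the letters of the window and not a bound site.

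From DPre-like to DPsel-like cells the levels of all 10 genes stood higher, with every DPsel-like library above every DPre-like library. Of all genes with enough counts, 11.7% showed that pattern. The median difference of the 10 genes was 3.84 on the log2(CPM + 1) scale, against -0.07 over all genes tested. Of the 25 other TCR response genes, 14 were higher in DPsel-like cells without overlap and 3 were lower, with a median difference of 0.88. The DPsel-like class was not uniform. In a second round of clustering described below, 1163 of its 3165 cells, between 35.5% and 39.0% of a library, fell into a cluster (second-round cluster 3) that scored highest for the DPre markers. These 1163 cells held Itm2a at 94.6, 121, 144 and 93.9 CPM and Nab2 at 53.9, 48.6, 35.9 and 33.3 CPM. Without them the DPsel-like level was 1732, 1675, 1381 and 1151 CPM for Itm2a and 222, 207, 164 and 183 CPM for Nab2, and the median difference of the 10 genes from DPre-like cells was 4.10. Without cluster 17 in DPre-like cells it was 3.83. A further 1252 DPsel-like cells fell into second-round cluster 1, which was led by the haemoglobin genes Hba-a1, Hba-a2 and Hbb-bs. It scored highest for the erythroid markers (2.69) and next for markers of immature SP cells (2.11). Since stages are clusters of the same cells, stage differences are descriptions over 4 libraries and carry no test.

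**Figure D1:**
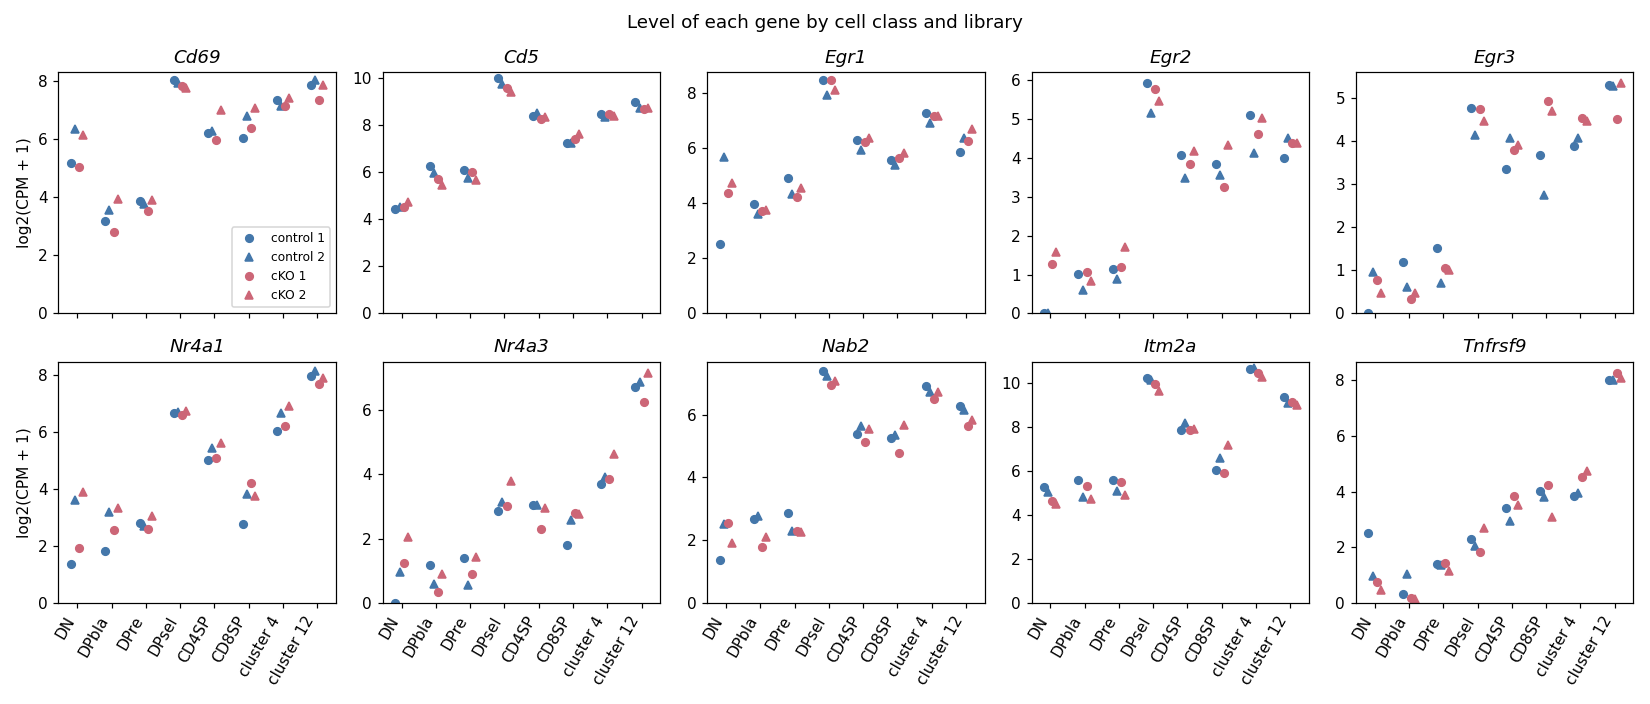
Level of each of the 10 genes as log2(CPM + 1) in 8 cell classes, 1 point per library (blue, control; red, cKO; circles, replicate 1; triangles, replicate 2). Cd5, Egr1, Egr2 and Nab2 were highest in DPsel, Itm2a in cluster 4, and Nr4a1, Nr4a3 and Tnfrsf9 in cluster 12.

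Among the surface molecules, Cd69 (chromosome 6, 129267325 to 129275436, GRCm38), which retains thymocytes in the cortex and medulla by opposing the egress receptor S1pr1, stood at 13.5, 12.5, 10.6 and 13.9 CPM in DPre-like cells. In DPsel-like cells it stood at 262, 239, 224 and 215 CPM, a difference of 4.12 ± 0.19 on the log2 scale (SD, n = 4 libraries), or 17.4-fold. Cd69 was as high in cluster 12 (229, 259, 161 and 228 CPM), where the libraries overlapped with those of DPsel-like cells, and lower in cluster 4 at 162, 137, 138 and 167 CPM. In CD4SP-like cells it was 72.0, 76.9, 61.1 and 126 CPM and in CD8SP-like cells 63.7, 110, 81.7 and 133 CPM, and these SP classes overlapped. B-like cells, a class of 28 to 43 cells per library, also carried Cd69 at 122 to 233 CPM.

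Cd5 (chromosome 19, 10717116 to 10739002), a scavenger-receptor family protein that dampens TCR signals and whose surface level tracks the strength of self recognition, stood at 67.5, 53.1, 63.0 and 49.9 CPM in DPre-like cells. In DPsel-like cells it stood at 1000.3, 845, 755 and 664 CPM, a difference of 3.78 ± 0.18. Every DPsel-like library was above every library of any other class. The order then ran through cluster 12 (409 to 498 CPM) and the overlapping pair of cluster 4 (322 to 354 CPM) and CD4SP-like cells (300 to 362 CPM) down to CD8SP-like cells (149 to 193 CPM).

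Itm2a (X chromosome, 107397099 to 107403376) encodes a small integral membrane protein that is induced during positive selection. It stood at 46.8, 33.3, 44.5 and 28.7 CPM in DPre-like and 1183, 1112, 982 and 799 CPM in DPsel-like cells, a difference of 4.71 ± 0.24, or 26.1-fold. Unlike the other genes it was highest in cluster 4, at 1596, 1615, 1411 and 1248 CPM, all above the DPsel-like libraries. It stood at 233 to 287 CPM in CD4SP-like and 59.99 to 144 CPM in CD8SP-like cells. Cluster 4 alone held between 42.3% and 49.5% of the Itm2a UMIs of a library, and DPsel-like cells held between 21.4% and 35.2%.

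Tnfrsf9 (chromosome 4, 150914562 to 150946102), the costimulatory receptor 4-1BB, was low in all DP classes and high in cluster 12. Its DPre-like level was 1.66, 1.56, 1.74 and 1.21 CPM and its DPsel-like level 3.90, 3.14, 2.57 and 5.54 CPM, which rest on 8, 10, 4 and 17 UMIs, a difference of 0.88 ± 0.50. In cluster 12 it reached 254, 257, 306 and 266 CPM, 5.86 ± 0.45 above DPsel-like cells on the log2 scale. Cluster 12 held 75.5%, 75.0%, 70.9% and 73.7% of the Tnfrsf9 UMIs of the 4 libraries while making up between 2.503% and 3.13% of the kept cells.

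Among the transcription factors, Egr1 (chromosome 18, 34859823 to 34864984), a zinc-finger factor induced through Erk, stood at 29.1, 19.4, 17.8 and 22.4 CPM in DPre-like and 353, 242, 352 and 272 CPM in DPsel-like cells, a difference of 3.73 ± 0.34. Egr2 (chromosome 10, 67535475 to 67542188), which is needed for efficient positive selection, stood at 1.22, 0.856, 1.31 and 2.28 CPM and then at 59.5, 34.9, 53.9 and 43.0 CPM, a difference of 4.34 ± 0.45. Egr3 (chromosome 14, 70077203 to 70082614), its partner in restraining activated T cells, stood at 0.623 to 1.88 CPM and then at 16.7 to 26.4 CPM, a difference of 3.46 ± 0.17. Egr1 and Egr2 were highest in DPsel-like cells in every library, whereas Egr3 in cluster 12 (21.8 to 39.6 CPM) overlapped with DPsel-like cells. After selection Egr1 stood lower, at 118 to 152 CPM in cluster 4, 60.6 to 81.1 CPM in CD4SP-like and 41.2 to 55.9 CPM in CD8SP-like cells. Egr2 stood at 16.5 to 33.5 CPM in cluster 4, 14.97 to 21.9 CPM in cluster 12, 10.1 to 17.2 CPM in CD4SP-like and 8.57 to 19.2 CPM in CD8SP-like cells. Egr3 stood at 13.8 to 22.3 CPM in cluster 4, 9.15 to 15.7 CPM in CD4SP-like and 5.77 to 29.7 CPM in CD8SP-like cells.

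The orphan nuclear receptors Nr4a1 (Nur77, chromosome 15, 101254269 to 101274795) and Nr4a3 (Nor1, chromosome 4, 48045153 to 48086447), which take part in deletion of strongly signalled thymocytes, had another order. Nr4a1 stood at 5.97, 5.60, 5.01 and 7.25 CPM in DPre-like, 102, 103, 96.3 and 107 CPM in DPsel-like and 251, 282, 207 and 237 CPM in cluster 12. Nr4a3 stood at 0.467 to 1.71 CPM in DPre-like, 6.34, 7.86, 7.06 and 13.0 CPM in DPsel-like and 105, 116, 74.9 and 141 CPM in cluster 12. Both were thus highest in cluster 12 without overlap, Nr4a1 by 1.24 ± 0.15 and Nr4a3 by 3.54 ± 0.29 over DPsel-like cells on the log2 scale. Cluster 12 was a mixture, and in a second round of clustering, described below, 496 of its cells fell in cluster 7, 200 in the Foxp3-expressing cluster 9 and 126 in cluster 10, which scored highest for NKT cell markers. Mean Nr4a1 over the libraries was 388, 89.8 and 22.7 CPM in these 3 second-round clusters and mean Nr4a3 182, 27.7 and 6.34 CPM, highest in second-round cluster 7. In SP cells Nr4a1 was 31.7 to 48.5 CPM in CD4SP-like and 5.86 to 17.8 CPM in CD8SP-like cells, and the latter overlapped with the DPre-like level, while Nr4a3 was 3.93 to 7.32 CPM and 2.51 to 5.93 CPM.

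Nab2 (chromosome 10, 127660918 to 127668568), the corepressor that binds Egr factors, differed by 4.73 ± 0.18 between DPre-like and DPsel-like cells, or 26.5-fold, level with Itm2a within the SD. It stood at 6.30, 3.89, 3.92 and 3.84 CPM in DPre-like and 166, 150, 123 and 133 CPM in DPsel-like cells. Its order of classes followed that of Egr1 and Egr2, with 89.9 to 118 CPM in cluster 4, 48.8 to 75.7 CPM in cluster 12, 33.7 to 48.8 CPM in CD4SP-like and 26.4 to 50.02 CPM in CD8SP-like cells. Over 24 profiles (6 stages in 4 libraries, which share their libraries and cells) the pair Egr2 and Nab2 had the highest Pearson r of any pair of the 10 on log2(CPM + 1), 0.969, and Nr4a1 and Tnfrsf9 the lowest, 0.406.

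After selection most of the genes stood lower but not at the resting level. 8 of 10 were lower in CD4SP-like than in DPsel-like cells without overlap, a pattern of 34.1% of all genes, Nr4a3 overlapped and Tnfrsf9 was higher. The CD4SP-like class held 156 cells of the Foxp3-expressing second-round cluster 9 described below, where Tnfrsf9 stood at 74.3 to 160 CPM. In second-round cluster 2, which held 956 of the CD4SP-like cells, Tnfrsf9 stood at 5.03, 5.06, 12.5 and 10.5 CPM and overlapped with DPsel-like cells. In CD8SP-like cells 8 of 10 were lower than in DPsel-like cells (36.1% of all genes), Egr3 overlapped and Tnfrsf9 was higher. Against DPre-like cells, all 10 were still higher in CD4SP-like cells (12.2% of all genes) and 9 of 10 in CD8SP-like cells (12.4% of all genes), Nr4a1 being the exception. 4 of the 10, Cd5, Egr1, Nr4a1 and Itm2a, were higher in CD4SP-like than in CD8SP-like cells in every library (10.7% of all genes) and none was lower. The differences were 0.99 ± 0.25 for Cd5, 0.58 ± 0.09 for Egr1, 1.65 ± 0.59 for Nr4a1 and 1.53 ± 0.56 for Itm2a on the log2 scale.

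Clusters 4 and 12 departed from DPsel-like cells in partly different genes. In cluster 4, 5 of the 10 (Cd69, Cd5, Egr1, Egr2 and Nab2) were lower than in DPsel-like cells against 20.8% of all genes, and 2 (Itm2a and Tnfrsf9) were higher against 10.4% of all genes. In cluster 12, 3 (Nr4a1, Nr4a3 and Tnfrsf9) were higher against 13.0% of all genes, and 5 (Cd5, Egr1, Egr2, Nab2 and Itm2a) were lower against 23.1% of all genes. Of the 25 other TCR response genes, 19 were higher and 2 lower in cluster 12 than in DPsel-like cells, with a median difference of 1.68 on the log2 scale, whereas the median of the 10 was -0.48.

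To separate kinds of signalled cells, the 7994 DPsel-like, SP-like, cluster 4 and cluster 12 cells were clustered a second time, again without the 10 genes and the other response genes, into 13 clusters. By mean level 6 of the genes peaked in second-round cluster 8, 3 in second-round cluster 7 and Itm2a in second-round cluster 4. Cluster 8 held 511 cells, 508 of them DPsel-like, with Cd24a, Myb and Bcl6, genes of immature cells, and the haemoglobin gene Hba-a1 among its leading genes. Cluster 7 held 591 cells, 496 of them from cluster 12 of the first round, with Xcl1, Gadd45b and Ccl4 among its leading genes. Its highest score was for regulatory T cell markers, at 0.885 against 2.88 in second-round cluster 9. Foxp3 stood at 2.98 CPM in cluster 7 and 102 CPM in cluster 9. Cluster 8 made up 7.001%, 7.28%, 5.13% and 6.09% of these cells in the 4 libraries and cluster 7 made up 7.73%, 6.82%, 8.01% and 7.29%.

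**Figure D2:**
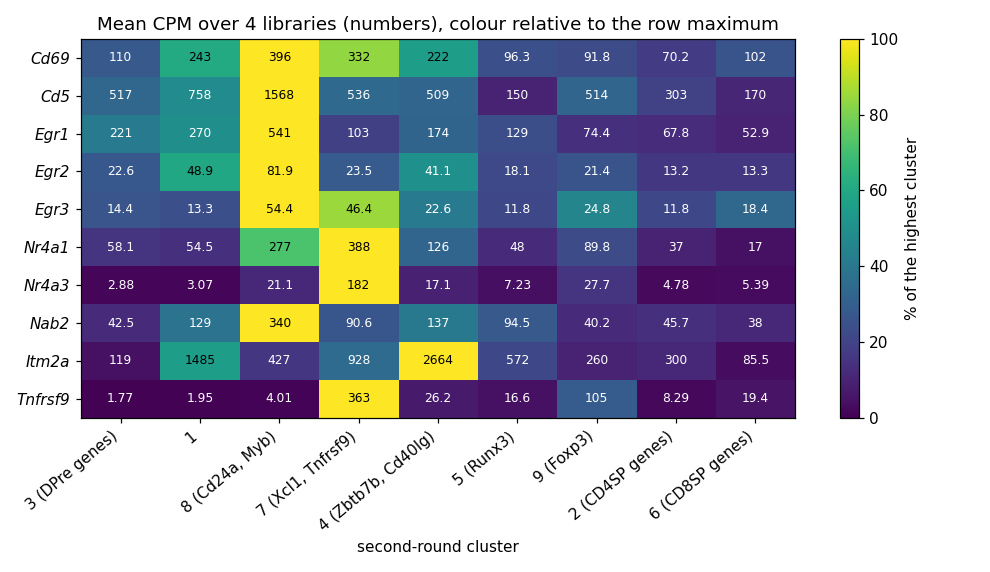
Mean CPM over the 4 libraries (numbers in the cells) of each of the 10 genes in 9 of the 13 second-round clusters, coloured by percent of the gene's highest cluster, with leading or stage genes in parentheses. Cluster 1, labelled without genes, was led by haemoglobin genes. Cd69, Cd5, Egr1, Egr2, Egr3 and Nab2 peak in cluster 8, Nr4a1, Nr4a3 and Tnfrsf9 in cluster 7 and Itm2a in cluster 4.

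In second-round cluster 8, Egr1 stood at 631, 416, 601 and 516 CPM against 73.8, 118, 82.9 and 138 CPM in cluster 7. Nab2 stood at 349, 369, 311 and 331 CPM against 104, 125, 64.8 and 68.4 CPM, and Cd5 at 1775, 1643, 1592 and 1261 CPM against 627, 570, 420.3 and 527 CPM. With Egr2 these were the 4 genes higher in cluster 8 without overlap, a pattern of 14.7% of all genes. In the other direction, Tnfrsf9 had 0, 0, 2 and 4 UMIs in cluster 8 but stood at 344, 390, 357 and 363 CPM in cluster 7. Nr4a3 stood at 15.8, 12.2, 31.1 and 25.1 CPM against 163, 207, 107 and 251 CPM, and Itm2a at 507, 539, 290 and 370 CPM against 960, 1101, 764 and 889 CPM. These 3 were lower in cluster 8 without overlap, a pattern of 11.7% of all genes. Nr4a1 did not follow Nr4a3, since it was high in both, at 254, 298, 280 and 279 CPM in cluster 8 and 381, 462, 268 and 441 CPM in cluster 7, with overlap. Cd69 and Egr3 overlapped too. Of the 25 other response genes, 3 were higher and 18 lower in cluster 8 than in cluster 7. Bcl2l11 (Bim), the BH3-only protein that executes deletion, had a mean of 99.8 CPM in cluster 8 and 389 CPM in cluster 7, and Nfkb1 124 and 459 CPM, while the phosphatase gene Dusp2 had 609 and 428 CPM.

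Within the cells between DP and SP, second-round cluster 4 (1033 cells, led by Itm2a, Cd40lg and Zbtb7b, the CD4 lineage factor) and second-round cluster 5 (809 cells, with Runx3 and Nkg7, CD8 lineage genes, among its leaders) could be compared. 7 of the 10 genes were higher in cluster 4 without overlap and none was lower, a pattern of 4.94% of all genes, and of the 25 other response genes 11 were higher and 1 lower. Itm2a stood at 2759, 3140.2, 2382 and 2373 CPM against 705, 799, 334 and 451 CPM, a difference of 2.29 ± 0.41 on the log2 scale. Cd5 differed by 1.76 ± 0.18, Nr4a1 by 1.40 ± 0.45 and Cd69 by 1.20 ± 0.16, and Egr2, Egr3 and Tnfrsf9 overlapped. In second-round cluster 9, led by the regulatory T cell genes Foxp3, Ctla4 and Il2ra, Tnfrsf9 stood at 105, 81.0, 160 and 74.3 CPM, above the other plotted clusters except 7.

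Per cell, the genes were sparse, so each cell was thinned to 1000 UMIs and counted for at least 1 UMI of any of the 10. In DPre-like cells 14.5%, 10.6%, 11.99% and 11.4% had one, and in cells of the mononuclear phagocyte system, which should not answer through a TCR, 18.7%, 11.1%, 17.4% and 17.7% did, on median depths of 830.0 to 991 UMIs before thinning against 2270 to 3150 in DPre-like cells. Only phagocytes with at least 1000 UMIs entered, 75 of 185, 54 of 112, 149 of 435 and 79 of 204. The DPre-like share was thus not above that of these cells, and the folds over DPre-like cells given above are over a level not told apart from that in phagocytes. Whether it is free RNA was not tested. Mean levels in other non-T classes went both ways. Cd5 stood at 58.4 CPM in DPre-like, 22.2 CPM in B-like and 7.69 CPM in the few erythroid-like cells. Egr1 stood at 22.1, 41.4 and 6.89 CPM in the same order. In DPsel-like cells the share was 77.3%, 74.1%, 73.8% and 70.9%, in cluster 4 between 67.4% and 73.2%, in cluster 12 between 66.9% and 71.8%, in CD4SP-like cells between 43.7% and 52.8% and in CD8SP-like cells between 30.2% and 37.6%. At least 3 of the 10 were seen in 20.8%, 17.3%, 16.2% and 16.3% of DPsel-like cells and in at most 0.110% of DPre-like cells. Without thinning, at least 1 was seen in 85.7% to 92.9% of DPsel-like and 22.5% to 37.0% of DPre-like cells.

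In the same thinned cells some of the genes were seen together. Among DPsel-like cells with an Egr1 UMI, 13.4%, 9.94%, 12.5% and 9.95% also had Egr2, against 2.07%, 1.45%, 0.541% and 2.33% of those without. In cluster 12, cells with an Nr4a1 UMI had Nr4a3 in 50%, 34.8%, 12.5% and 35.7%, against 2.01%, 5.18%, 2.45% and 4.49% of those without. By contrast, cells of cluster 12 with Nr4a1 had Tnfrsf9 in 14.3%, 26.1%, 29.2% and 19.6%, against 20.1%, 15.5%, 22.1% and 19.6%, with no shared direction over the libraries.

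The genes outside the 10 whose pattern over the 24 profiles was most like their mean were A430093F15Rik (Pearson r = 0.971), Csk (0.959), Rgs10 (0.954), Stk17b (0.953), Dad1 (0.948), B630019A10Rik (0.944), Nab1 (0.944) and Rapgef6 (0.942), out of 6073 candidates. None is in the list of 25 other response genes. Nab1, the second Nab corepressor gene, had a mean of 28.6 CPM in DPre-like and 92.0 CPM in DPsel-like cells, and Csk, the kinase that holds Lck inactive, 131 and 228 CPM. The 10 genes themselves correlated with their own mean between 0.672 (Tnfrsf9) and 0.985 (Nab2). Each is part of that mean, which raises its r, so these values do not compare with those of the outside genes.

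The second question was whether loss of Tox4 moved these genes within a class. UMI counts were summed per library and class and tested with edgeR's quasi-likelihood test, with p-values adjusted by Benjamini-Hochberg over all genes tested in the class, and p-values measure the spread between these 4 mice only. In DPsel-like cells 0 of 9 tested genes was called, where 0.460% of all genes were. At an unadjusted p under 0.05 there were 3 (Cd5, Itm2a and Nab2), against 927 of all 9560 genes tested, and DESeq2 called 0 of the 9. With the replicate number as a block the same pair, Cd5 (adjusted p = 0.00384) and Itm2a (adjusted p = 0.00328), was called, as it was without a filter on low counts, and without second-round cluster 3 there was 1, Itm2a (log2 fold change -0.41, adjusted p = 0.0324). Tnfrsf9 was too low in these cells to be tested. Cd5, at 1000.3 and 845 CPM in controls and 755 and 664 CPM in cKO, had a log2 fold change of -0.35 (SE 0.098, unadjusted p = 0.00133, adjusted p = 0.121). Itm2a, at 1183 and 1112 CPM against 982 and 799 CPM, had one of -0.34 (SE 0.098, adjusted p = 0.138). For Nab2 the control libraries stood at 166 and 150 CPM and the cKO libraries at 123 and 133 CPM, and it had one of -0.27 (SE 0.13, adjusted p = 0.511). With Cd69 these were the 4 genes of 10 lower in both cKO libraries than in both controls, and 20.8% of all genes were. Without control 2, 1 gene (Cd5) was called.

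The Egr and Nr4a genes of DPsel-like cells did not share that direction with the 10% limit on mitochondrial UMIs. Egr1, at 353 and 242 CPM against 352 and 272 CPM, had a log2 fold change of 0.10 with a 95% interval from -0.18 to 0.37. Nr4a1, at 102 and 103 CPM against 96.3 and 107 CPM, had one of 0.02 with an interval from -0.27 to 0.30. For Egr2 it was 0.08 (interval -0.32 to 0.48), for Egr3 0.17 (-0.33 to 0.66, and -0.041 without second-round cluster 3) and for Nr4a3 0.60 (-0.14 to 1.34). Libraries of the genotypes overlapped for each of these 5, and with a mitochondrial limit of 5% the fold changes of Egr1, Egr2 and Nr4a1 turned to -0.10, -0.03 and -0.45. The summed level of 10 immediate-early and heat shock genes, which can rise during tissue handling, was 761, 1019, 635 and 790 CPM in the same cells, highest in control 2, and its part in these values was not tested.

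**Figure D3:**
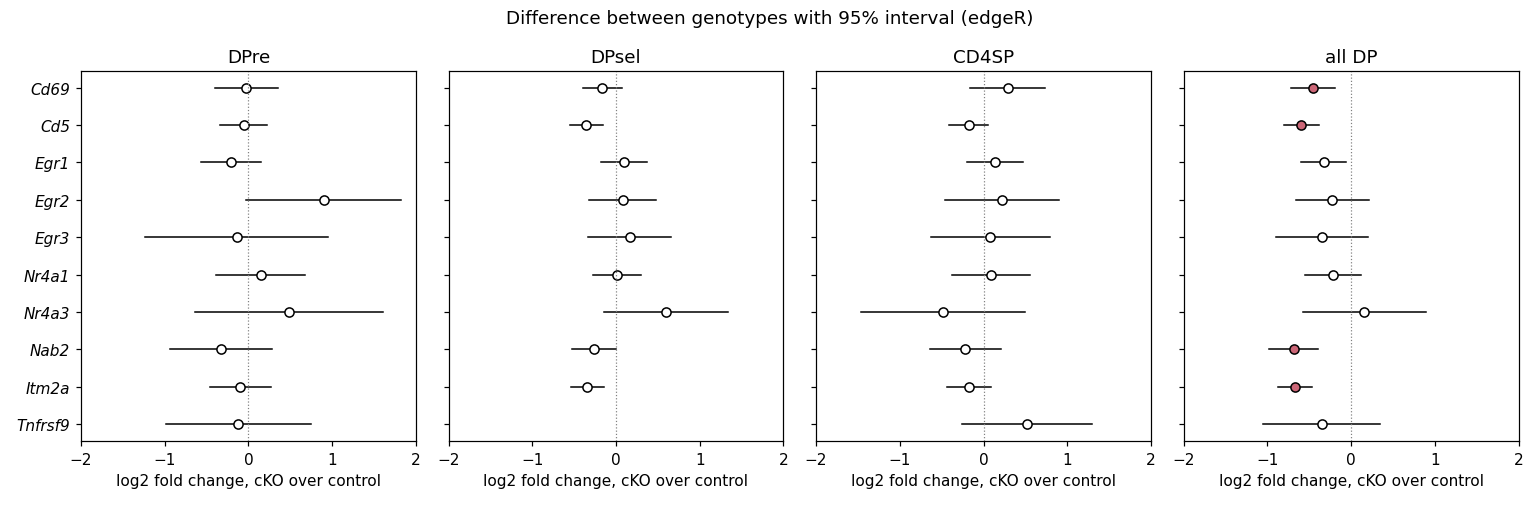
Log2 fold change of cKO over control for each gene in DPre, DPsel, CD4SP and all DP cells, with 95% intervals from edgeR; filled points have an adjusted p under 0.05. Tnfrsf9 was not tested in DPsel. No gene was called in DPre, DPsel or CD4SP, while Cd69, Cd5, Nab2 and Itm2a lay below 0 in all DP cells.

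In the other stages 1 gene was called in 1 class. In DPbla-like cells, the dividing cells before the resting stage, Cd5 stood at 76.3 and 61.7 CPM in controls and 51.6 and 42.8 CPM in cKO and was the 1 gene of 6 tested that was called (log2 fold change -0.50, SE 0.13, adjusted p = 0.0345), where 3.50% of all genes were. That call was lost, leaving 0 genes, with DESeq2, without control 1 or without cKO 2, with library size as the only scaling, with a mitochondrial limit of 5% and without the removal of doublets. The summed immediate-early and heat shock genes stood at 537 and 709.8 CPM in control and 402 and 495 CPM in cKO DPbla-like cells, lower in both cKO libraries, and their part in the Cd5 call was not tested. Without control 2, 2 genes were called there, Cd5 and Nr4a1. In DPre-like cells 0 of 10 was called (2.42% of all genes), with 0 by DESeq2 and 0 without cluster 17. At an unadjusted p under 0.05 there were 0, against 1753 of all 11713 genes tested. The log2 fold changes of the 10 ran from -0.33 (Nab2) to 0.90 (Egr2). The DPre-like fold changes of Cd69 and Cd5 were -0.03 (interval -0.40 to 0.35) and -0.06 (-0.34 to 0.22).

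In CD4SP-like cells 0 of 10 was called (0.115% of all genes), with 0 by DESeq2. At an unadjusted p under 0.05 there were 0, against 635 of all 8705 genes tested. The log2 fold changes ran from -0.49 (Nr4a3) to 0.52 (Tnfrsf9). Without cKO 1, 1 gene (Cd69) was called there. In DN-like cells 0 of 5 was called (0.0230% of all genes), with 0 by DESeq2. At an unadjusted p under 0.05 there was 1 (Itm2a), against 616 of all 8688 genes tested. Without control 1, 1 gene (Egr1) was called. In CD8SP-like cells 0 of 9 was called, with 0 by DESeq2, and edgeR called no gene at all (0% of all genes). At an unadjusted p under 0.05 there were 399 of all 8070 genes tested, and 1 of the 9. That gene was Egr3, with 14 and 7 UMIs (11.7 and 5.77 CPM) in controls and 45 and 30 UMIs (29.7 and 25.01 CPM) in cKO, a log2 fold change of 1.62 (SE 0.38, adjusted p = 0.454). These UMIs came from 10 and 5 control cells and 11 and 12 cKO cells, so the share of cells with an Egr3 UMI, 7.87% and 3.62% in controls and 5.82% and 6.35% in cKO, overlapped. Without control 1, without cKO 2 and with the replicate number as a block it was called, and without cKO 1 the called gene was Itm2a. In this class 4 of the 10 (Cd5, Egr1, Egr3 and Nr4a3) were higher in both cKO libraries than in both controls, where 18.7% of all genes were.

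In cluster 4, 0 of 10 was called (0.491% of all genes), with 0 by DESeq2. Of all 9570 genes tested 860 had an unadjusted p under 0.05, and of the 10 there were 3. These were Itm2a, with a log2 fold change of -0.28 (SE 0.080, adjusted p = 0.152), Tnfrsf9, with one of 0.74 (SE 0.23, adjusted p = 0.227), and Egr3, with one of 0.53 (SE 0.23, adjusted p = 0.495). Tnfrsf9 stood at 13.4 and 14.6 CPM in controls and 21.9 and 25.5 CPM in cKO, without overlap. Without cKO 1 and with the replicate number as a block, 1 gene (Itm2a) was called. In cluster 12, 0 of 10 was called (0.369% of all genes), with 0 by DESeq2. At an unadjusted p under 0.05 there were 3 (Nab2, Cd69 and Nr4a1), against 629 of all 8681 genes tested. The control libraries of cluster 12 held Nab2 at 75.7 and 70.1 CPM and the cKO libraries at 48.8 and 55.4 CPM, with a fold change of -0.48 on the log2 scale (SE 0.19, adjusted p = 0.479). Without cKO 2, 1 gene (Cd69) was called.

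Summed over all DP cells, 4 of the 10 fell, where 8.11% of all genes were called. Itm2a went from 202 and 190 CPM in controls to 123 and 114 CPM in cKO (log2 fold change -0.67, SE 0.098, adjusted p = 0.000235), and Cd5 from 197 and 171 to 118 and 116 CPM (-0.59, SE 0.099, adjusted p = 0.000747). Nab2 went from 27.8 and 25.7 to 13.5 and 18.2 CPM (-0.69, SE 0.14, adjusted p = 0.00374), and Cd69 from 46.0 and 45.2 to 27.0 and 36.6 CPM (-0.45, SE 0.13, adjusted p = 0.0306). Without cKO 1, 2 of them (Cd5 and Itm2a) were called, and the call of Cd69 was also lost without control 1 or without control 2, where Egr1 gained one. With the replicate number as a block 5 were called, Egr1 being added, and without the removal of doublets 2 (Cd5 and Nab2). DESeq2 called 3 (Cd5, Nab2 and Itm2a), and 4 were called without cluster 17. With a mitochondrial limit of 5%, 6 were called and the median log2 fold change of the 10 went from -0.35 to -0.89. The summed immediate-early and heat shock genes moved with this fall, at 748 and 904 CPM in controls and 550.2 and 639 CPM in cKO, and their part in it was not tested. Over all kept cells Cd5, Nab2 and Itm2a were called, 3 of 10, where 2.04% of all genes were. There 1 was called without cKO 1, 0 without cKO 2 and 2 without control 1.

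The make-up of the DP cells moved with this difference. DPsel-like cells made up 15.03% and 16.3% of DP cells in controls and 11.5% and 14.3% in cKO, DPbla-like cells 10.3% and 9.27% against 16.8% and 13.9%, and DPre-like cells 74.7% and 74.5% against 71.6% and 71.8%. The genotypes did not overlap in any of these shares, with an exact two-sided permutation p of 0.333, the smallest that 2 against 2 libraries can give. When the share of UMIs from each DP class was held at its mean over libraries, the difference of the mean log2 CPM of cKO and control shrank from -0.65 to -0.34 for Cd5, from -0.73 to -0.33 for Itm2a, from -0.77 to -0.35 for Nab2 and from -0.54 to -0.15 for Cd69. All 4 were still lower in both cKO libraries, as was Tnfrsf9 (1.47 and 1.58 against 1.32 and 1.37 CPM). The share of all genes with that order at equal make-up was not computed. In the single DP classes as observed it ran from 20.8% (DPsel-like) to 26.5% (DPre-like). For Egr1 the difference went from -0.38 to 0.00, with overlap.

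**Figure D4:**
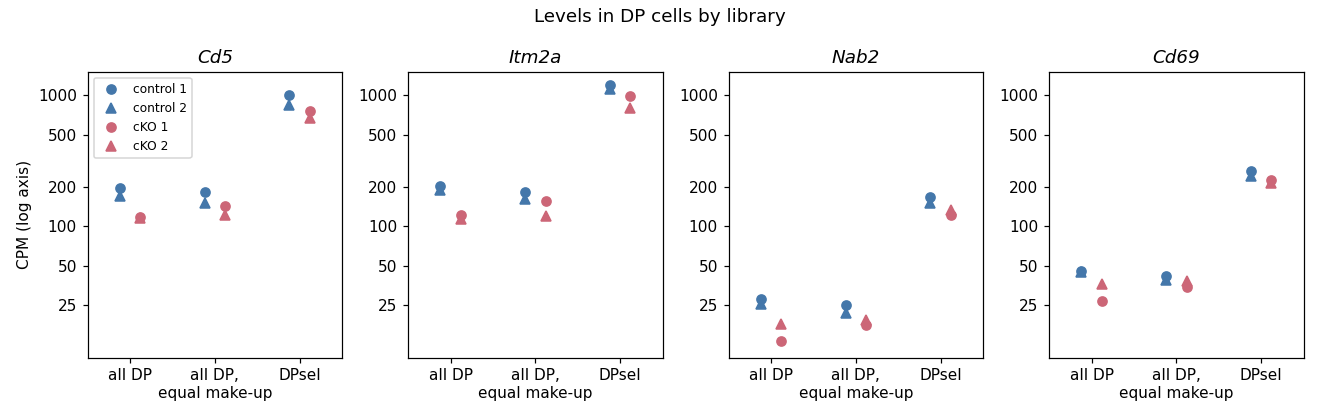
CPM (log axis) of 4 genes in each library, summed over all DP cells as observed, over all DP cells at equal make-up and in DPsel cells alone (blue, control; red, cKO; circles, replicate 1; triangles, replicate 2). The gap between genotypes narrows at equal make-up, for Cd69 from -0.54 to -0.15 on the log2 scale.

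The share of DPsel-like cells with a UMI, after thinning, which kept between 98.5% and 99.6% of them, gave the same order for Cd5. It was seen in 53.0% and 51.6% of control cells and 45.4% and 42.6% of cKO cells, a difference of -8.28 percentage points. Nab2 was seen in 13.5% and 13.7% against 9.39% and 11.7%. Itm2a was seen in 33.1% and 30.3% against 32.5% and 29.7%, with overlap. The exact permutation p was 0.333 for Cd5, Nab2, Nr4a1 (lower in cKO) and Nr4a3 (higher in cKO) and 0.667 for Itm2a, and no share could pass 0.05 in this design. The Nr4a3 shares, 0.548% and 0.608% against 0.873% and 0.873%, rest on 3, 6, 4 and 10 cells. In DPre-like cells Cd5 was seen in 4.38% to 5.90% of cells and in the phagocytes in 3.70% to 6.67%.

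Of the 25 other TCR response genes, Myc was the 1 called in DPbla-like cells, with a rise of 1.58 on the log2 scale (SE 0.16, adjusted p = 5.32e-06), and in DPre-like cells, with a rise of 1.58 (SE 0.22, adjusted p = 0.000307), and none was called in DPsel-like (0 of 23 tested), CD4SP-like (0 of 20) or CD8SP-like cells (0 of 16), with 5, 3 and 3 at an unadjusted p under 0.05. Of all genes 3.50% were called in DPbla-like and 2.42% in DPre-like cells. An unadjusted p under 0.05 was held by 927 of 9560 genes in DPsel-like, 635 of 8705 in CD4SP-like and 399 of 8070 in CD8SP-like cells. Over all DP cells, where 8.11% of all genes were called, 6 of the 25 were, Myc higher and Dusp2, Dusp5, Dusp6, Icos and Lag3 lower. In cluster 12 (0.369% of all genes called), Tnfrsf4 (-0.74, adjusted p = 0.00308) and Gadd45b (-0.74, adjusted p = 0.0189) were lower in cKO while 0 of the 10 was called, and Tnfrsf4 was lower in cluster 4 too (-0.81, adjusted p = 0.00809, where 0.491% of all genes were called). These genes other than Myc, and the genes given for second-round clusters 7 and 8, were chosen after their values were seen.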

How the data were processed

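Thymocytes of 2 control and 2 cKO mice were sequenced with a 10x 3′ kit, 1 library per mouse. The authors aligned reads to mm10 with Cell Ranger and deposited matrices of UMI counts per gene and cell, which were used as deposited. Groups came from the labels. Cells with at least 200 genes, outside the outer 2.5% of UMI totals at each end and with at most 10% mitochondrial UMIs were kept, and the 5% of cells in each library with most simulated doublets among their neighbours were removed. Median UMIs per cell were 1792 and 2698 in control and 1533 and 2295 in cKO libraries before these steps.

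Counts were log-normalised, and 3000 variable genes without the 10 genes and 25 other TCR response genes were reduced to 30 principal components per cell, joined over 20 nearest neighbours and clustered by Leiden at resolution 1 (leidenalg 0.10.2, igraph 0.11.9, scikit-learn 1.9.0, numpy 2.4.6, scipy 1.17.1). A second round used 1500 variable genes. Clusters of at least 20 cells were named from marker lists, and genotypes were tested in classes of at least 30 cells per library. The 10 genes, the lists and the markers were chosen with earlier results of these data known, and the second round, clusters 4 and 12 as classes and the naming thresholds were set after the clusters were seen.

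UMI counts were summed per library and class and tested with edgeR 4.0.16 (glmQLFTest, TMM, filterByExpr, limma 3.58.1, R 4.3.3), without a replicate block, with Benjamini-Hochberg adjustment over all genes tested and a threshold of 0.05. DESeq2 1.42.0, other scaling, no filter, a replicate block, left-out libraries, a mitochondrial limit of 5%, no doublet removal, clusters built with the 10 genes, resolution 1.5 and a pseudocount of 5 CPM were alternatives, as were DPre-like and all DP cells without cluster 17 and DPsel-like cells without second-round cluster 3, both chosen after seeing the data. The fits were tested on simulated data. Stage differences are means ± SD over 4 libraries of log2(CPM + 1). Shares were compared by exact two-sided permutation of libraries after thinning to 1000 UMIs. UMI counting precision limits low values, and a share from 1 library covers counting error only. Barcodes shared between libraries were kept.

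By the rule for names the text could give the 10 genes in any class and, of the other response genes, those called in DPre, DPsel, CD4SP or CD8SP-like cells, and it says where others were chosen after their values were seen. Genes of like pattern were the 8 of at least 20 CPM with the highest r. Promoters were RefSeq windows of GRCm38.p6, and figures were drawn with matplotlib 3.10.9.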

Additional observations from a re-analysis of the deposited data

Results flagged for a closer look

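The genotype difference of Cd5 pointed in opposite directions in different classes. In CD8SP-like cells both cKO libraries (167 and 193 CPM) were above both controls (151 and 149 CPM), whereas in DPbla-like cells both (51.6 and 42.8 CPM) were below both controls (76.3 and 61.7 CPM). The log2 fold change of cKO over control in CD8SP-like cells exceeded that in DPbla-like cells by 0.72. Cd5 was also lower in both cKO libraries in DPsel-like and CD4SP-like cells. In DN-like cells it was higher in both, at 21.7 and 25.3 CPM against 20.6 and 21.6 CPM, with control 2 and cKO 1 nearly tied. Of all genes, 18.7% were higher in both cKO libraries in CD8SP-like and 16.6% in DN-like cells. Lower in both were 26.4% in DPbla-like, 20.8% in DPsel-like and 15.9% in CD4SP-like cells. The difference between classes was not tested, and of these classes Cd5 was called in DPbla-like cells only.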

How the results depend on the processing

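Of the genes called per class, 87 values under alternatives stayed within the limits set, 15 moved up and 8 moved down. In DPbla-like cells, where 1 gene was called, 0 were called with DESeq2, with library size alone, with a mitochondrial limit of 5% and without doublet removal, and leaving out a library gave 0 to 2. In DPsel-like cells 2 were called without a filter on low counts and 1 without second-round cluster 3 (chosen after seeing the data), and leaving out a library gave 0 to 1, as it did in DN-like, CD4SP-like and CD8SP-like cells and in clusters 4 and 12. In CD8SP-like cells 1 was called without the filter. In all DP cells, with 4 called, 2 were called without doublet removal, 3 with DESeq2 and at resolution 1.5 and 6 at the 5% limit, where all 10 had a fold change below 0, and leaving out a library gave 2 to 4. Each cause was not tested.

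Log2 fold changes in DPsel-like cells near 0 turned sign. Egr1 gave -0.098 with a mitochondrial limit of 5% and -0.15 to 0.36 on leaving out a library. Egr2 gave -0.089 at resolution 1.5, -0.026 at the 5% limit and -0.28 to 0.45 on leaving out a library. Egr3 gave -0.020 with clusters built with the 10 genes, -0.041 without second-round cluster 3 and -0.16 to 0.46 on leaving out a library. Nr4a1 gave -0.052 at resolution 1.5, -0.17 with clusters built with the 10 genes, -0.011 with library size alone, -0.45 at the 5% limit and -0.075 to 0.082 on leaving out a library, and Nr4a3 gave -0.014 to 0.87. The median over the 9 tested went from 0.02 to -0.17 with clusters built with the 10 genes, to -0.42 at the 5% limit and to between -0.19 and 0.17 on leaving out a library. Cd5, Itm2a, Nab2 and Cd69 turned sign under none of these. The median stage difference was 3.40 with a pseudocount of 5 CPM and 4.10 without second-round cluster 3. The median difference in share of DPsel-like cells with a UMI was -2.90 points at the 5% limit, -1.82 without thinning and -1.56 to 0.18 on leaving out a library. At the 5% limit no DN-like class was named and CD8SP-like cells were too few in 1 library, so these gave no value.

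Genes called of all genes moved by more than 1.5 times as well, in DPsel-like cells from 44 to between 9 (5% limit) and 193 (replicate block) and in all DP cells from 1016 to between 564 (5% limit) and 2084 (replicate block). Leaving out a library gave between 43 and 525 (against 370) in DPbla-like, 65 and 292 (283) in DPre-like, 25 and 48 (2) in DN-like, 27 and 62 (10) in CD4SP-like and 4 and 47 (0) in CD8SP-like cells, 35 and 86 (47) in cluster 4, 43 and 61 (32) in cluster 12 and 16 and 675 (282) over all kept cells. With the replicate block they were 1134, 1068, 100, 115, 60, 165, 83 and 2082 in the same order.

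The study used littermates and describes 2 pairs of control and cKO mice, and the labels number replicates alike in both genotypes, but neither source says that equal numbers mark a pair. Deviations of same-numbered libraries correlated between 0.10 and 0.32 over the classes. With the replicate number as a block 2 genes were called in DPsel-like cells (Cd5, adjusted p = 0.00384, and Itm2a, adjusted p = 0.00328), 1 in CD8SP-like cells, 1 in cluster 4, 5 in all DP cells and 4 over all kept cells.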
